A study of Mus musculus with 48 samples.

Results

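The effect of a pancreatic tumor on skeletal muscle at noon, circadian time 30 (CT30), was measured in 8 of the 48 libraries, all from tibialis anterior, a fast-twitch muscle of the lower leg. Members were chosen by label alone: 4 mice with KPC tumors and 4 sham-operated control mice, with 2 mice of each genotype in either condition. KPC cells are a mouse pancreatic cancer line, and they were injected into the pancreas, whereas control mice received the vehicle only, which is PBS in the labels and saline in the methods. All 8 mice were males of 39 to 55 weeks, were killed around the onset of wasting, and had been moved from a light cycle to constant darkness, so that CT30 falls in the rest phase of the animal. FoxP1SkmKO mice are homozygous for a floxed Foxp1 allele and carry Cre driven by ACTA1, a promoter of differentiated skeletal muscle fibers, so the other cells of the muscle keep the gene. For the WT mice, the sample records give C57BL/6J and the design text gives floxed mice without Cre, and the files do not settle which holds. The comparison asks which genes differed between KPC and control mice at this hour when both genotypes are combined, with genotype as a covariate.

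Muscle that wastes in cancer receives cytokine, glucocorticoid, and nutrient signals from outside the fiber, and most of its RNA comes from the fibers themselves. Around the fibers lie capillaries, whose endothelial cells rest on a basement membrane of type IV collagen, laminin, nidogen, and perlecan, and fibroblast-like cells that make the fibrillar collagens. Interferon-gamma acts through transcription factors that include IRF1 to raise GTPases that attack intracellular parasites and the genes that load peptides on MHC class I. The molecular clock runs as a loop in which CLOCK and BMAL1 (encoded by Arntl) activate the PER and CRY repressors.

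Total counts on genes at CT30 ranged from 15130678 to 16810168 (median 16363226), within the 14480867 to 20787784 of all 48 libraries, and 19600 to 21325 genes had at least 1 read. Foxp1, the targeted gene, did not separate the genotypes cleanly. It stood at 0.971 and 0.728 FPKM (reads scaled to gene length and library size, a level that can be compared between genes) in WT control mice, at 0.573 and 0.641 in FoxP1SkmKO control mice, at 0.677 and 0.596 in WT KPC mice, and at 0.544 and 0.526 in FoxP1SkmKO KPC mice, from 123 to 216 reads. The FoxP1SkmKO controls lay below the WT controls, but between the KPC groups the gap was small. Genotypes are named as labelled. The 10 fiber markers, led by Acta1, Atp2a1, and Myh4, summed to 68710 to 81600 FPKM in controls and to 72680 to 77280 FPKM in KPC mice, and of the liver and pancreas markers Apoa1, Ahsg, Serpina1a, Prss2, and Cpa1 were at 0 in all 8 libraries.

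The second FoxP1SkmKO KPC mouse stood apart from the other 7. It had the highest number of genes detected, and its summed neutrophil markers reached 19.08 FPKM against 0.4373 to 1.794 in the other KPC mice and 0.03415 to 1.292 in controls. Its summed macrophage markers were at 34.2 FPKM, against 11.8 to 20.29 in controls, and Sln, which encodes sarcolipin, an inhibitor of the calcium pump, was at 34.1 FPKM against 0.469 to 1.64 in the other 7 mice. Its part in the results was not tested, and values without this mouse are given for some of the calls that rest on it.

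A single gene passed the test when both genotypes were combined. Of 15637 genes, 1 (0.00640%) had an adjusted p under 0.05 in edgeR's quasi-likelihood test on all 48 libraries with Benjamini-Hochberg adjustment, and 1408 (9.0%) were under 0.05 before adjustment, 699 of them higher in KPC mice (4.47%) and 709 lower (4.53%). DESeq2 on all 48 libraries called 39 genes (0.249%). The count was larger when the 8 CT30 libraries were fitted alone, with their own filter on low counts: edgeR then called 8 of 14207 genes (0.0563%) and DESeq2 called 100 (0.704%), of which 41 were higher (0.289%) and 59 lower (0.415%) in KPC mice. Leaving out 1 library, a repeat chosen after seeing the data, moved the 100 to between 39, without the first FoxP1SkmKO control, and 90, and to 44 without the second WT control, and 33 to 66 of the 100 genes were called again. The 8 became 0 without the second WT KPC or the second WT control mouse and 45 without the second FoxP1SkmKO KPC mouse. The count thus differed between tools and sets of libraries, and below, "rose" and "fell" are used only for the edgeR test on 48 libraries, whereas other genes are given as higher or lower with their values. In 280 genes (1.79%) all 4 KPC mice lay above all 4 control mice in FPKM, and in 405 genes (2.59%) all 4 lay below. The shares over all genes given here are the background for the counts in lists below. The lists were chosen with earlier results of these data known, so their counts are descriptions and not independent tests. Genes named from the fits on 8 libraries were chosen after their values were seen.

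Cd93, which encodes a receptor of endothelial cells that takes part in vessel adhesion and sprouting, fell. The gene lies on the minus strand of chromosome 2 of mm39 (chr2:148278560-148285483). It was at 9.30 and 9.13 FPKM in WT controls, 6.50 and 6.99 in WT KPC mice, 9.93 and 10.25 in FoxP1SkmKO controls, and 7.15 and 5.81 in FoxP1SkmKO KPC mice. Every KPC mouse lay below every control, in both genotypes. The log2 fold change was -0.54 (standard error 0.09, adjusted p = 0.030 from edgeR), a decrease of 31.1%. Without the second FoxP1SkmKO KPC mouse its adjusted p was 0.427, without the first it was 0.00331, and without any 1 of the other 6 it ranged from 0.0239 to 0.143, with log2 fold changes of -0.63 to -0.47 over all alternatives. With the replicate number as a block, the adjusted p was 0.0972. A lower level of such a transcript can mean fewer cells of that type or less RNA per cell, which bulk RNA cannot tell apart.

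Besides Cd93, 6 genes had an adjusted p under 0.1 in edgeR. Cdh5, Pcdh12, Tigd4, Nxpe4, and F2r were lower in KPC mice, all at an adjusted p of 0.064, and Gvin1, described below among the GTPases, was higher at 0.082. Cdh5 encodes VE-cadherin, which holds endothelial cells together. It was at 31.0 and 27.8 FPKM in WT controls and 28.6 and 32.6 in FoxP1SkmKO controls, against 25.7 and 22.9 in WT KPC mice and 22.8 and 19.0 in FoxP1SkmKO KPC mice. The groups did not overlap, and the log2 fold change was -0.41 (standard error 0.08). Pcdh12, a protocadherin of endothelial cells, was tightly grouped in the 4 controls (2.17 to 2.22 FPKM) and was lower and more spread in KPC mice, at 1.27 and 1.52 in WT and 1.48 and 0.905 in FoxP1SkmKO mice (log2 fold change -0.76, standard error 0.15). F2r, the thrombin receptor, was at 1.85 to 2.02 FPKM in controls, at 0.942 and 0.978 in WT KPC mice, and at 1.59 and 1.66 in FoxP1SkmKO KPC mice, with a combined log2 fold change of -0.62.

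Several regulators of endothelial cells were also lower by DESeq2 on the 8 libraries. Kdr, the main receptor for VEGF-A, was at 8.95 to 10.5 FPKM in controls and at 6.25, 7.89, 7.42, and 5.31 in the KPC mice, with no overlap (adjusted p = 0.00067). Aplnr, the apelin receptor, was at 3.91 ± 0.53 FPKM (SD, n = 4) in controls and 2.47 ± 0.55 in KPC mice (adjusted p = 0.0087). Ets1, a transcription factor of endothelial and blood cells, was at 3.59 ± 0.24 and 2.47 ± 0.54 FPKM (adjusted p = 0.012). All KPC mice were below all controls in both genes.

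The endothelial markers did not move as a block. Of 8 markers, 3 were lower at an unadjusted p under 0.05 and none higher, and their median log2 fold change was -0.18 (-0.37 in FoxP1SkmKO mice and 0.01 in WT mice), against 0.01 over all genes. Pecam1, the pan-endothelial adhesion molecule, was at 13.0, 12.5, 12.9, and 15.8 FPKM in controls and 14.7, 11.5, 11.8, and 9.64 in KPC mice, so the groups overlapped, whereas Cdh5 and Kdr did not. Emcn, a marker of capillary and venous endothelium, had a log2 fold change of -0.38. The summed level of the 8 markers was 84.92 to 103.5 FPKM in controls and 65.65 to 87.5 in KPC mice, with the lowest value in the second FoxP1SkmKO KPC mouse. The 7 pericyte and smooth muscle markers summed to 92.57 to 113.4 FPKM in controls and 67.13 to 99.25 in KPC mice. The part of cell number in the lower Cd93, Cdh5, and Kdr was not tested.

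**Figure D1:**
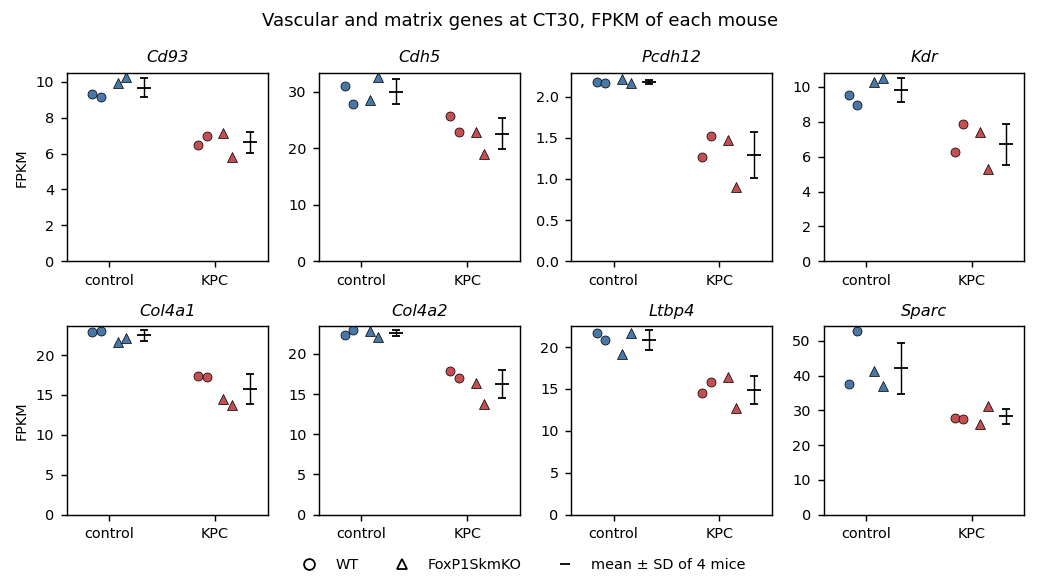
FPKM of each mouse (points, y axis from 0) for 8 vascular and matrix genes at CT30 in control (blue) and KPC (red) mice, circles for WT and triangles for FoxP1SkmKO, with the mean ± SD of the 4 mice beside them. In all 8 panels the 4 KPC mice lie below the 4 control mice, for Cd93 at 5.81 to 7.15 against 9.13 to 10.25 FPKM.

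Transcripts of genes for the basement membrane were lower as well, but which cells made them was not tested. Col4a1 and Col4a2 encode the chains of type IV collagen, the main scaffold of this membrane, and are transcribed head to head on chromosome 8 of mm39 (chr8:11248423-11362826, minus strand, and chr8:11362805-11499287, plus strand), with a short overlap at their starts. Col4a1 was at 22.9, 23.1, 21.6, and 22.2 FPKM in controls and at 17.4, 17.2, 14.5, and 13.7 in KPC mice. Col4a2 was at 22.4, 22.9, 22.9, and 22.2 FPKM in controls and at 17.8, 17.0, 16.4, and 13.8 in KPC mice. Both genes had controls within a narrow band and all KPC mice beneath it. Their log2 fold changes were -0.52 and -0.47 (standard errors 0.12 and 0.11, adjusted p = 0.11 for both in the edgeR test on 48 libraries), and edgeR on the 8 libraries gave adjusted p-values of 0.017 and 0.036. No log2 fold change over the alternatives was closer to 0 than -0.49 for Col4a1 and -0.42 for Col4a2.

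Of 39 genes of basement membrane and other matrix glycoproteins, none passed the edgeR test, 16 were lower and 1 higher at an unadjusted p under 0.05, 7 were lower by DESeq2 on the 8 libraries, and 13 had all KPC mice below all controls, as 2.59% of all genes did. The 7 became 4 without the first FoxP1SkmKO control or the second WT control mouse, and 9 without the second FoxP1SkmKO KPC mouse. The list's median log2 fold change was -0.45. Among them, Nid1, the nidogen that links laminin to type IV collagen, was at 5.95 ± 0.42 FPKM in controls and 4.36 ± 0.42 in KPC mice (SD, n = 4 each). Lamb1, a laminin chain, was at 1.78 ± 0.13 and 1.19 ± 0.13, and Hspg2, which encodes perlecan, at 21.2 ± 1.1 and 16.9 ± 0.45. Ltbp4, which tethers latent TGF-beta to elastic fibers, was at 19.1 to 21.7 FPKM in controls and 12.7 to 16.4 in KPC mice. Sparc, a collagen-binding matricellular protein, was at 37.5, 52.8, 41.3, and 36.9 FPKM in controls and at 27.9, 27.5, 26.1, and 31.4 in KPC mice. None of these 5 genes overlapped between the groups, and DESeq2 on the 8 libraries gave adjusted p-values between 6.2e-05 (Ltbp4) and 0.0041 (Nid1). Pxdn, the peroxidase that crosslinks type IV collagen, had a log2 fold change of -0.49 (adjusted p = 0.0015 from DESeq2 on the 8 libraries), and Itga6, an integrin chain that binds laminin, had -0.34 (adjusted p = 0.029).

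Collagens were lower almost throughout the family. Of 40 collagen genes, 36 had a negative log2 fold change, the median was -0.51 (-0.53 in WT and -0.47 in FoxP1SkmKO mice), and 17 were lower and none higher at an unadjusted p under 0.05. None passed the edgeR test on 48 libraries. DESeq2 on the 8 libraries called 11 lower, a count that went down to 4 without the second WT control mouse and to 5 without the first mouse of FoxP1SkmKO controls, FoxP1SkmKO KPC, or WT KPC, and 13 had all KPC mice below all controls. Over all genes, 4.53% were lower before adjustment, 0.415% were lower by DESeq2 on the 8 libraries, and 2.59% had all KPC mice below all controls. Col1a1, the main chain of fibrillar type I collagen, was at 15.3 and 36.1 FPKM in WT controls, 14.6 and 13.2 in FoxP1SkmKO controls, 9.03 and 6.86 in WT KPC mice, and 5.34 and 8.71 in FoxP1SkmKO KPC mice. The second WT control was far above the other 3 controls, and the KPC mice were below all of them. Its partner Col1a2 was at 8.13, 14.2, 8.49, and 5.90 FPKM in controls and at 4.66, 4.06, 2.66, and 4.64 in KPC mice, with a log2 fold change of -1.16 (standard error 0.32, adjusted p = 0.18 in edgeR). Col5a1, which sets the diameter of collagen fibrils, and Col6a3, of the microfibrils around the fiber, had log2 fold changes of -0.58 and -0.66.

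Most genes that organize and remodel the fibrils had negative log2 fold changes, 11 of 13 small leucine-rich proteoglycans and 28 of 34 remodeling enzymes. Of the 13 small leucine-rich proteoglycans, which coat collagen fibrils, 9 were lower and none higher at an unadjusted p under 0.05, with a median log2 fold change of -0.49, and 2 were lower by DESeq2 on the 8 libraries, neither of them without the first FoxP1SkmKO control or the second WT control, and 1 without the first WT control or the first FoxP1SkmKO KPC mouse. Aspn and Ecm2, the members with the smallest p-values, had -0.49 and -0.48, Dcn, the decorin gene, had -0.66, and Kera, a proteoglycan of cornea and tendon, had -1.71. Of the 34 matrix remodeling enzymes, whose log2 fold changes ran from -0.89 to 0.71, 9 were lower and none higher at an unadjusted p under 0.05 and the median was -0.27, with Mmp14 and Adamts15 at -0.50 and -0.72. Mmp2, gelatinase A, was at 4.01, 5.37, 4.26, and 2.93 FPKM in controls and at 1.77, 2.85, 2.51, and 2.68 in KPC mice, without overlap (adjusted p = 0.013 from DESeq2 on the 8 libraries). The DESeq2 call for Mmp2 was lost without the first FoxP1SkmKO control, the first WT KPC, or either WT control mouse. Postn, periostin, varied over a wide range among controls (0.322 to 1.37 FPKM) and was at 0.140 to 0.382 in KPC mice.

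Marker lists of the cells that make this matrix share genes with the lists above: 4 of 8 fibro-adipogenic markers (Col1a1, Col3a1, Dcn, and Lum) and 4 of 6 tendon markers (Comp, Fmod, Kera, and Thbs4). Their levels are thus not independent of those lists. The 8 fibro-adipogenic markers summed to 101.1 to 154.4 FPKM in controls and 70.47 to 109.8 in KPC mice, and 7 of the 8 were lower by their fitted value. The 6 tendon markers summed to 32.89 to 48.07 FPKM in controls and 21.64 to 35.54 in KPC mice, and in both lists the groups overlapped. Tnmd, tenomodulin, a membrane protein of tendon cells, was at 1.69, 3.31, 2.16, and 1.14 FPKM in controls and at 0.982, 0.426, 0.225, and 0.776 in KPC mice, whereas Scx, the tendon transcription factor, had a positive log2 fold change of 0.36. How much tendon and connective tissue each dissected muscle held was not measured, and its part in the lower collagens was not tested.

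Igf1, which encodes the growth factor that promotes muscle protein synthesis and is made by several cell types of muscle, was lower too. It was at 0.512 and 0.849 FPKM in WT controls, 0.425 and 0.591 in FoxP1SkmKO controls, 0.305 and 0.304 in WT KPC mice, and 0.301 and 0.247 in FoxP1SkmKO KPC mice. The KPC mice were close together and below every control. Its log2 fold change was -1.02 (standard error 0.22, adjusted p = 0.10 in edgeR on 48 libraries and 0.0046 in DESeq2 on the 8). The DESeq2 call for Igf1 was lost without the second FoxP1SkmKO control, the first WT KPC, or the second WT control mouse. Fstl1, a secreted antagonist of BMP signals, had -0.61, with overlapping groups. In contrast, the 39 genes of the insulin, IGF1, and mTOR list had a median log2 fold change of 0.00, with 2 higher and 2 lower at an unadjusted p under 0.05, Pik3r3 among the lower at -0.40.

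**Figure D2:**
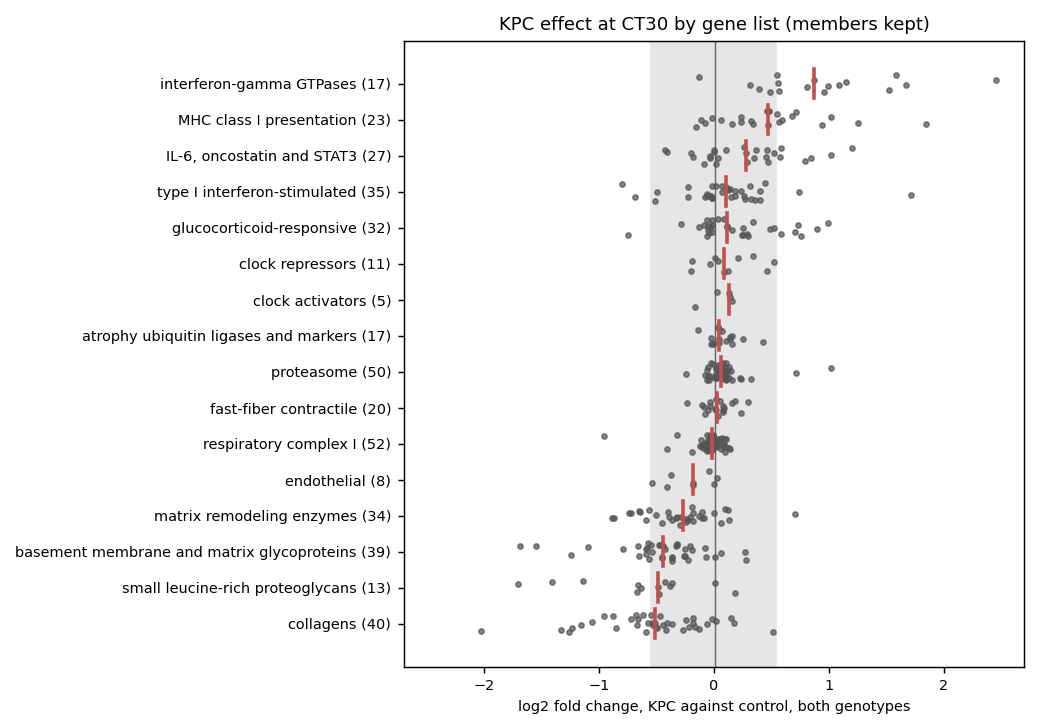
Log2 fold change of KPC against control mice at CT30, both genotypes combined, for each gene kept (points) in 16 lists, with the list median (red line), the median of all genes (grey line), and the range from the 5th to the 95th percentile of all genes (grey band, -0.55 to 0.54). The medians run from 0.87 for interferon-gamma GTPases to -0.51 for collagens, while proteasome, fast-fiber, and respiratory genes cluster near 0.

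At the other end of the scale stood genes induced by interferon-gamma. Of 17 interferon-gamma GTPases and related genes kept, none passed the edgeR test on 48 libraries, but 11 were higher and none lower at an unadjusted p under 0.05, 10 were higher by DESeq2 on the 8 libraries, and in 11 all KPC mice lay above all controls, as in 1.79% of all genes. The median log2 fold change was 0.87, with 1.31 in WT mice and 0.41 in FoxP1SkmKO mice. Without the second FoxP1SkmKO KPC mouse DESeq2 called 9, and 5 without the first FoxP1SkmKO control, the first WT KPC mouse, or either WT control. Many of these genes lie in clusters of near-identical copies, so that reads could be split between Tgtp1 and Tgtp2 or among the Gbp and Irgm genes, and single values are less certain than the group.

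Short stretches just upstream of 6 of these genes and of B2m, a class I gene described below, are shown because the interferon-stimulated response element, a paired GAAA repeat to which IRF factors bind, can be read in them. They are RefSeq sequences of GRCm38.p6, a different build from the mm39 of the counts, given 5′ to 3′ on the strand of the gene, and span the 100 bases before the start for the first 6 genes and the bases from 150 to 51 before it for B2m. Capitals mark GAAANNGAAA or its reverse complement TTTCNNTTTC.
Tgtp1 (chr11:48992247-48992346, minus strand): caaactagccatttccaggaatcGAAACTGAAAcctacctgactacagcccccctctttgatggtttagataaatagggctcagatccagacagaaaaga
Tgtp2 (chr11:49064213-49064312, minus strand): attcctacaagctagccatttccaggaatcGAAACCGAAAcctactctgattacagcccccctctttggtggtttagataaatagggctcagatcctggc
Igtp (chr11:58199456-58199555, plus strand): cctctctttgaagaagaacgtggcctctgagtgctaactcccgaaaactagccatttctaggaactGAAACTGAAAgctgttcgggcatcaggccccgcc
Irgm2 (chr11:58214877-58214976, plus strand): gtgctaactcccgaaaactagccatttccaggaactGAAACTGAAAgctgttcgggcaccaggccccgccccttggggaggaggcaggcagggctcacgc
Irgm1 (chr11:48871421-48871520, minus strand): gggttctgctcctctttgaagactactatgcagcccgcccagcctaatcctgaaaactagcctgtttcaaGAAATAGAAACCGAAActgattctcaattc
Gbp2 (chr3:142620563-142620662, plus strand): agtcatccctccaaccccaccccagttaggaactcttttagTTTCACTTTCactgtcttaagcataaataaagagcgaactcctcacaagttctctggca
B2m (chr2:122147537-122147636, plus strand): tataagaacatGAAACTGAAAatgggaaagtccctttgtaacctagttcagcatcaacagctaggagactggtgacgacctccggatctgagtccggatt

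Searched on both strands over the 250 bases before the start, this motif stood in 9 of the 11 GTPase-list genes that have a promoter in the table (of 17 kept), against 936 of 27025 genes in the whole table (3.46%), a gene with several starts counted once. It stood in 3 of 20 class I genes and in 0 of 32 collagens. The interferon-gamma activated site TTCNNNGAA, which can overlap the first motif, stood in 7 of the 11 GTPase-list genes, in 2 of 20 class I genes, and in 2 of 32 collagens, against 8.13% of all genes in the table. Igtp and Irgm2 share a run of 55 identical bases upstream, and Tgtp1 and Tgtp2 one of 27, so these promoters are not independent examples. A match is a description of the letters and not a measured binding site.

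Tgtp1, a GTPase of T cells and interferon-treated cells whose motif is shown above, had the highest log2 fold change of the list. It was at 0.193 and 0.167 FPKM in WT controls and 0.164 and 0.0961 in FoxP1SkmKO controls, against 1.38 and 1.12 in WT KPC mice and 0.607 and 0.546 in FoxP1SkmKO KPC mice. The groups were far apart, with the WT KPC mice highest. Its log2 fold change was 2.45 (standard error 0.60, adjusted p = 0.14 in edgeR on 48 libraries and 0.010 in edgeR on the 8). Iigp1, an immunity-related GTPase, was at 1.35, 1.09, 1.05, and 1.47 FPKM in controls, 3.84 and 3.31 in WT KPC mice, and 2.28 and 1.94 in FoxP1SkmKO KPC mice (log2 fold change 1.15, adjusted p = 0.034 in edgeR on the 8 libraries). Gbp4, a guanylate-binding protein, was at 0.882 to 1.34 FPKM in controls, at 6.19 and 3.24 in WT KPC mice, and at 2.78 and 1.92 in FoxP1SkmKO KPC mice.

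Gvin1, a very large interferon-induced GTPase, was low, at 0.0411 to 0.0618 FPKM in controls and at 0.0878 to 0.295 in KPC mice (log2 fold change 1.67, adjusted p = 0.082 in edgeR on 48 libraries). Gbp2 was at 1.80 to 2.43 FPKM in controls, at 5.83 and 4.70 in WT KPC mice, and at 2.95 and 3.45 in FoxP1SkmKO KPC mice. The paralogs Tgtp2 and Gbp5 had log2 fold changes of 1.58 and 0.87, and Igtp, Irgm1, and Irgm2 had 0.81, 0.55, and 0.56. All KPC mice were above all controls in each of these 7 genes, and both WT KPC mice were above both FoxP1SkmKO KPC mice. Irf1, the transcription factor next in the pathway, was at 1.48, 1.60, 1.95, and 1.89 FPKM in controls and 2.93, 2.67, 2.16, and 1.94 in KPC mice, with WT KPC mice above all others and FoxP1SkmKO mice overlapping.

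The ligand was at the limit of detection. Ifng had 1 read over the 8 libraries together and 0 in 7 of them, and a count of 0 allows up to 0.178 to 0.198 CPM (counts scaled to library size) at these depths, a limit that covers counting error only. T and B lymphocyte markers summed to 0.2845 to 0.6101 FPKM in controls and 0.472 to 0.9501 in KPC mice. Which cells carried the GTPase transcripts was not tested.

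Genes that present peptides on MHC class I were higher in the same mice. Of 23 genes, none passed the edgeR test on 48 libraries, 12 were higher and 1 lower at an unadjusted p under 0.05, 9 were higher by DESeq2 on the 8 libraries, and in 12 all KPC mice lay above all controls. Over all genes, 4.47% were higher before adjustment, 0.289% were higher by DESeq2 on the 8 libraries, and 1.79% had all KPC mice above all controls. The median log2 fold change of the class I genes was 0.47, with 0.51 in WT and 0.41 in FoxP1SkmKO mice. Without the first WT KPC mouse DESeq2 called 5, and without the second FoxP1SkmKO KPC mouse 9. B2m, the light chain common to class I molecules, was at 61.4, 53.9, 57.4, and 58.0 FPKM in controls and at 85.1, 79.2, 81.0, and 71.1 in KPC mice. The lowest KPC mouse was above the highest control, and the log2 fold change was 0.46 (adjusted p = 0.51 in edgeR on 48 libraries and 0.049 in edgeR on the 8).

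Tap1 and Tap2 form the pump that carries peptides into the endoplasmic reticulum. Tap1 was at 0.677, 0.841, 1.02, and 0.957 FPKM in controls and at 3.03, 1.58, 2.24, and 1.44 in KPC mice, above all controls, and Tap2 was at 1.76 to 2.54 in controls and 2.27 to 3.45 in KPC mice, with overlap in FoxP1SkmKO mice. Psmb9, a subunit of the immunoproteasome, which replaces a standard subunit when interferon is present, was at 0.404 to 0.839 FPKM in controls and 0.997 to 1.44 in KPC mice. Nlrc5, the transactivator of class I genes, had a log2 fold change of 0.94. The heavy chain genes H2-K1, H2-D1, and H2-Q7 had 0.56, 0.47, and 1.84 and were higher in all KPC mice, but reads can be exchanged among the H2 genes, whose sequences are close. Cd274, which encodes the checkpoint ligand PD-L1, was at 0.903 to 1.52 FPKM in controls, at 4.04 and 2.65 in WT KPC mice, and at 2.38 and 1.40 in FoxP1SkmKO KPC mice, so it overlapped in the latter only. H2-Eb1, a class II chain, was at 3.39 to 3.85 FPKM in controls and 5.07 to 9.03 in KPC mice, and was highest in the mouse with the highest macrophage markers.

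**Figure D3:**
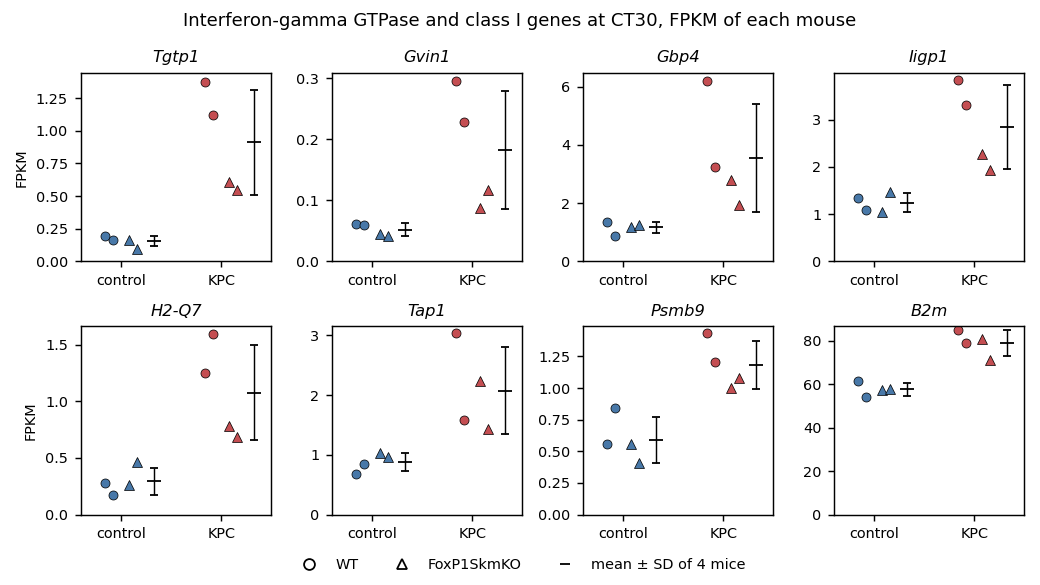
FPKM of each mouse (points, y axis from 0) for 8 interferon-gamma GTPase and class I genes at CT30 in control (blue) and KPC (red) mice, circles for WT and triangles for FoxP1SkmKO, with the mean ± SD of the 4 mice beside them. All 4 KPC mice lie above all 4 control mice in every panel, and for Tgtp1, Iigp1, and Gbp4 the WT KPC circles lie above the triangles.

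Genes chiefly induced by type I interferon differed less from the background. Of 35 genes, 4 were higher and none lower at an unadjusted p under 0.05, none was called by DESeq2 on the 8 libraries, and the median log2 fold change was 0.11. Usp18, which removes ISG15 from proteins, and Zbp1, a sensor of nucleic acids, had the smallest p-values, at log2 fold changes of 0.74 and 1.72, and Usp18 alone had no overlap between groups.

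Genes of IL-6 family and STAT3 signaling had a median log2 fold change of 0.28 over 27 genes (0.41 in WT and 0.02 in FoxP1SkmKO mice). None passed the edgeR test on 48 libraries, 9 were higher and 1 lower at an unadjusted p under 0.05, and 3 were higher by DESeq2 on the 8 libraries (0 without the first FoxP1SkmKO control, the first WT KPC, or the second WT control mouse, and 1 without the second FoxP1SkmKO KPC or the first WT control mouse). Stat3 itself was at 5.95, 5.21, 5.98, and 5.83 FPKM in controls and at 8.69, 6.55, 6.74, and 7.50 in KPC mice, without overlap (log2 fold change 0.36, standard error 0.09, adjusted p = 0.14 in edgeR). Il4ra, a receptor chain for IL-4 and IL-13, was at 0.772 to 0.914 FPKM in controls and 1.196 to 1.81 in KPC mice, and Jak3, a kinase of such receptors, at 2.77 to 3.63 and 3.97 to 5.03. Bcl3, an IkB family coactivator, had a log2 fold change of 1.02, from 0.399 to 0.782 FPKM in controls to 0.934 to 1.34 in KPC mice. Csf2rb and Csf2rb2, near-identical receptor chains whose reads may be exchanged, had 1.06 and 1.01. Il6 had 0 to 4 reads in any library.

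In the list of C/EBP and NF-kB factors, 3 of 23 genes were higher and 2 lower at an unadjusted p under 0.05, around a median of 0.10. Cebpd, a C/EBP factor of the acute phase response, was at 1.67, 2.30, 2.50, and 2.81 FPKM in controls and at 3.08, 4.46, 3.25, and 4.06 in KPC mice, above every control (adjusted p = 0.16 in edgeR on 48 libraries and 0.013 in DESeq2 on the 8). The DESeq2 call for Cebpd was lost without the second FoxP1SkmKO KPC mouse, among others. Cebpb, a related factor tied to muscle wasting, ranged more widely, from 12.6 to 28.4 FPKM in controls and from 20.7 to 39.2 in KPC mice. The acute-phase and neutrophil genes S100a9 and S100a8 rested on 1 mouse. S100a9 was at 9.72 FPKM in the second FoxP1SkmKO KPC mouse, at 0.926, 0.980, and 0.350 in the other KPC mice, at 0.237 and 0.384 in WT controls, and at 0 in both FoxP1SkmKO controls, and S100a8 was at 4.96 there and at or under 0.385 in all other mice.

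Glucocorticoid-responsive genes had a median log2 fold change of 0.11 over 32 genes, with 10 higher and none lower at an unadjusted p under 0.05 (4.47% and 4.53% of all genes). None passed the edgeR test on 48 libraries, and DESeq2 on the 8 libraries called 4 higher, Arrdc2, Arrdc3, Cebpd, and Per1, none of them without the second FoxP1SkmKO KPC or the first FoxP1SkmKO control mouse, 1 without the second WT control, and 2 without the second WT KPC or the first WT control. Arrdc3, an arrestin-domain adaptor of membrane receptors, was at 4.21 to 5.35 FPKM in controls, at 5.70 and 5.03 in WT KPC mice, and at 7.51 and 9.08 in FoxP1SkmKO KPC mice. Arrdc2 differed by genotype already in controls, at 5.18 and 8.41 FPKM in WT and 11.6 and 19.8 in FoxP1SkmKO, and was at 17.8 and 13.1 and at 25.3 and 29.0 in the matching KPC mice. Tsc22d3, which encodes GILZ, was at 33.5 to 39.0 FPKM in controls and 37.6 to 46.5 in KPC mice. Within each genotype all KPC mice were above their controls for Arrdc2 and Tsc22d3. This list shares genes with others, so its counts are not independent of theirs. Cebpd is also in the list of C/EBP and NF-kB factors, and Per1 is among the clock repressors. Tsc22d3, Klf9, and Klf15 are among the output genes of the clock.

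Among core clock genes at this hour, none of the 5 activators kept and none of the 11 repressors passed the edgeR test on 48 libraries. Before adjustment 0 activators and 4 repressors were under 0.05, all 4 higher in KPC mice, as were 4.47% of all genes. Nfil3, a repressor that competes with the PAR bZIP factors, was at 4.51, 6.49, 6.05, and 5.14 FPKM in controls and at 8.62, 7.23, 7.51, and 7.08 in KPC mice, above every control (log2 fold change 0.46, standard error 0.15, adjusted p = 0.28). Per1 was at 8.28 and 8.88 FPKM in WT controls against 12.8 and 11.1 in WT KPC mice, and at 11.3 and 15.7 in FoxP1SkmKO controls against 16.3 and 23.2 in FoxP1SkmKO KPC mice. The KPC mice were above the controls within each genotype, with an overlap between genotypes (log2 fold change 0.52, standard error 0.22, adjusted p = 0.46 in edgeR and 0.0046 in DESeq2 on the 8 libraries). The DESeq2 call for Per1 was lost without the second FoxP1SkmKO KPC mouse, among others. Per2 and Per3 had log2 fold changes of 0.34 and 0.21 with overlapping groups.

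The other repressors were closer to 0 for their errors, with log2 fold changes of 0.00 for Cry1, 0.09 for Cry2, -0.20 for Nr1d1, -0.04 for Nr1d2, 0.12 for Bhlhe40, -0.19 for Bhlhe41, and 0.03 for Ciart. Of the activators, Clock had 0.03, Arntl -0.16, Npas2 0.14 (with a standard error of 0.52), and Rora 0.16, with adjusted p-values of 0.59 and above in edgeR. Among 12 output genes of the clock, 4 were higher and none lower at an unadjusted p under 0.05 (4.47% and 4.53% of all genes), around a median of 0.12, with Tef, a PAR bZIP factor, at 0.12. Foxp1 itself had a log2 fold change of -0.29 (standard error 0.12, adjusted p = 0.44).

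**Figure D4:**
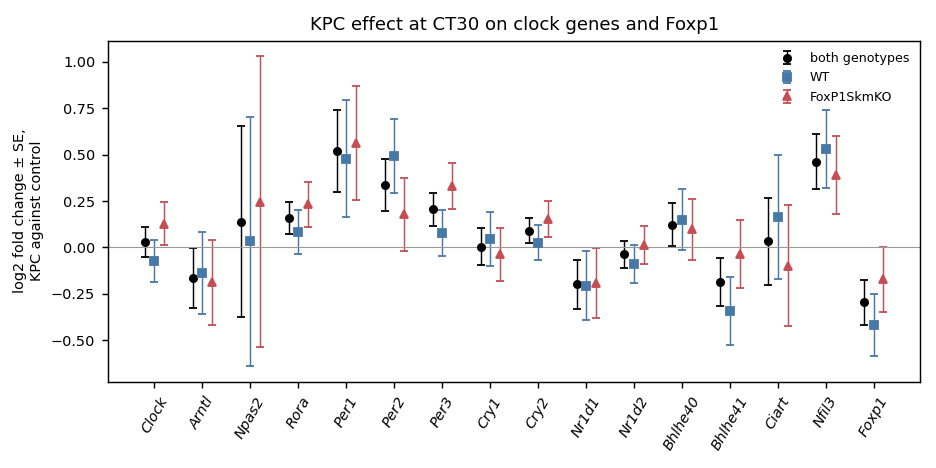
Log2 fold change of KPC against control mice at CT30 (points, with standard error bars) for 15 clock genes and Foxp1, for both genotypes combined (black), WT (blue), and FoxP1SkmKO mice (red). Per1, Nfil3, and Per2 lie above 0 in both genotypes at 0.52, 0.46, and 0.34 combined, and no gene passed the test.

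Programs of the muscle fiber itself stayed near the background. The 17 atrophy genes had a median log2 fold change of 0.04, with 1 higher at an unadjusted p under 0.05, Ubb at 0.16. Fbxo32 (atrogin-1) was at 49.9, 23.7, 32.8, and 26.6 FPKM in controls and 44.9, 29.8, 38.5, and 43.8 in KPC mice, and Trim63 (MuRF1) at 45.6 to 57.4 and 49.4 to 61.0, so both E3 ligases overlapped. Fbxo40, a ligase of the insulin pathway, had 0.11. The 50 proteasome genes had a median of 0.06 and were led by Psmb9, with the constitutive subunit Psmb4 at 0.13. Of 39 autophagy genes 4 were higher and none lower at an unadjusted p under 0.05, against 4.47% and 4.53% of all genes (median 0.04), with Gabarap, which lines the autophagosome, at 0.19 and Tfeb, the regulator of lysosomal genes, at 0.24. Lysosomal genes had 4 higher and 3 lower of 33 (median 0.06), with Hexa and Atp6v1a at 0.20 each.

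Fast-fiber contractile genes showed single differences rather than a shift of the class. Of 20 fast-fiber genes 3 were higher and none lower at an unadjusted p under 0.05 (4.47% and 4.53% of all genes) around a median of 0.03, led by Mybpc2 and Mylk2 at 0.23 and 0.30. Des, the desmin gene, was at 830, 793, 781, and 855 FPKM in controls and at 947, 892, 999, and 1043 in KPC mice, above all controls (log2 fold change 0.26, adjusted p = 0.14 in edgeR on 48 libraries and 0.024 in DESeq2 on the 8). The DESeq2 call for Des was lost without the second FoxP1SkmKO KPC mouse, among others. Slow-fiber genes were uneven between mice. Of 18, 2 were higher and 2 lower at an unadjusted p under 0.05, and 12 log2 fold changes were positive and 6 negative (median 0.12). The 6 heart and soleus-type markers, which belong to this list, were all positive (median 0.56). They summed to 15.16 to 21.39 FPKM in controls and 15.64 to 35.11 in KPC mice, with overlap. Myh7, the slow myosin heavy chain, was at 3.98 FPKM in 1 WT KPC mouse and 3.58 in 1 FoxP1SkmKO KPC mouse but at 0.356 to 0.807 in all other mice, and Pln, phospholamban, was at 0.269 to 0.380 in controls and 0.0423 to 0.197 in KPC mice. Actc1, the cardiac actin of regenerating fibers, spread from 92.8 to 468 FPKM among controls.

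Among myogenic genes, Myf6 was higher in both FoxP1SkmKO KPC mice and Myod1 in the second. The myogenic list had median log2 fold changes of -0.02 in WT and 0.04 in FoxP1SkmKO mice. The acetylcholine receptor and denervation list had -0.05 and 0.25. No gene passed the edgeR test of the difference of the KPC effect between genotypes. Myf6, a myogenic factor of mature fibers, was at 41.6 to 44.5 FPKM in the 4 controls, at 43.0 and 43.7 in WT KPC mice, and at 55.6 and 68.5 in FoxP1SkmKO KPC mice (log2 fold change 0.29 combined). Myod1 was at 28.0 FPKM in the second FoxP1SkmKO KPC mouse and at 7.84 to 18.3 in the others. Hdac4 and Musk, which respond to loss of nerve input, had log2 fold changes of 0.28 and 0.38, with the highest values in that same mouse. Of 18 myogenic and 23 acetylcholine receptor and denervation genes, 2 each were higher and none lower at an unadjusted p under 0.05. Acvr1b, a receptor of myostatin and activin, had 0.21 within a list of 30 that held 1 higher and 2 lower genes.

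Metabolic lists also lay close to 0. Glycolysis had 4 of 31 genes higher and none lower at an unadjusted p under 0.05, against 4.47% and 4.53% of all genes (median 0.02). Aldoa, a muscle aldolase, was at 0.32 in 1 of its entries, and Pfkm was at 0.12. All KPC mice lay above all controls in 1 Aldoa entry, and the groups overlapped in the other. The tricarboxylic acid cycle had 1 higher and 2 lower of 27 (median -0.02), with Idh2, the mitochondrial isocitrate dehydrogenase, at 0.31 and its cytosolic counterpart Idh1 at -0.23. Of 41 genes of fatty acid oxidation 4 were lower and none higher (median -0.02), Mgll and Cd36 at -0.29 and -0.24. Lipid and sterol synthesis had 4 of 33 lower and none higher (median -0.10). There Fasn, the fatty acid synthase, was at 1.61, 2.02, 2.26, and 1.62 FPKM in controls and 1.35, 1.27, 0.956, and 0.985 in KPC mice, below every control, and Scd2 had -0.54.

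The list for respiratory complex I had 0 higher and 1 lower of 52 genes (median -0.02). Its member Ndufa4l2, which is not an established subunit of the complex, was at -0.32. Complexes II to V had none of 51 in either direction (median -0.02), with Cox7a2l and Cycs at 0.10 and -0.15. The 29 mitochondrially encoded genes had a median of -0.12, while the ribosomal RNA mt-Rnr1 was at 589 to 661 FPKM in controls and at 753 to 973 in KPC mice (log2 fold change 0.42) and mt-Rnr2 had 0.30. The libraries were made from poly-A selected RNA. Cytosolic ribosomal proteins had 3 higher and 1 lower of 85 (median 0.04), with Rpl22 at 0.19 and Rps4l at -0.80, and mitochondrial ribosomal proteins 1 lower of 82 (median 0.01), Mrpl21 at -0.19 and Mrpl32 at -0.16.

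Among stress responses, 9 of 31 genes of the integrated stress response were higher and 1 lower at an unadjusted p under 0.05 (4.47% and 4.53% of all genes), with a median log2 fold change of 0.12. Mthfd2, a mitochondrial folate enzyme under ATF4 control, was at 0.821 to 1.21 FPKM in controls and 1.13 to 1.96 in KPC mice (log2 fold change 0.62), with overlap. Of 29 immediate early genes 2 were higher, Btg2 at 0.54 and Junb at 0.45, and Btg2, an antiproliferative gene, had all KPC mice above all controls. Heat shock genes had 1 of 36 higher (Hsp90ab1, 0.13, with Hspe1 at -0.17) and hypoxia genes 3 of 22 lower (Adm at -0.82 and Epas1 at -0.15). Complement had 1 higher and 2 lower of 20, with C1qa at 0.68 and C7 at -0.77.

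Glutamine and branched-chain amino acid genes had 3 higher and 1 lower of 29, led by Glul, glutamine synthetase, at 0.58, with 1 WT KPC mouse at 87.5 FPKM and the others between 33.9 and 63.8, and by Bckdk at 0.14. Polyamine genes had 3 higher and 2 lower of 16 (Oaz1 at 0.12, Odc1 at -0.30), and calcium release genes 3 higher of 31 (Cacng1 at 0.17). No glycogen gene of 16, no zinc transport or metallothionein gene of 8, and of the 9 FoxP and FoxO factors only Foxp1 was under 0.05 before adjustment. Ppp1r3d, Ppp1r3c, Slc39a8, Slc39a10, and Foxo4, the genes with the smallest p-values there besides Foxp1, had log2 fold changes of 0.47, 0.23, 0.75, -0.26, and 0.12.

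Taken by genotype, the test called 1 gene in WT mice and none in FoxP1SkmKO mice. In WT mice 1 of 15637 genes (0.00640%) passed and 815 (5.21%) were under 0.05 before adjustment. The gene was F2r, whose WT levels are given above and which fell, with a log2 fold change of -1.03 (standard error 0.18, adjusted p = 0.049 from edgeR), against -0.21 in FoxP1SkmKO mice. The call held with no filter and with the length trend removed. It was lost with median-ratio scaling (adjusted p = 0.052), under the replicate block (0.166), in edgeR on the 8 libraries (0.161), in DESeq2 on 48, 8, or 4 libraries (0.123 to 0.337), and without any 1 of the 4 WT mice (0.135 to 1), with log2 fold changes of -1.07 to -0.98 throughout. In FoxP1SkmKO mice 0 genes passed edgeR (0.00%), 1399 (8.95%) were under 0.05 before adjustment, and DESeq2 on all 48 libraries called 32. Cavin2, a coat protein of caveolae, which are dense in endothelium, was the single gene called there with median-ratio scaling (log2 fold change -0.66, adjusted p = 0.049). It was at 21.0 and 23.7 FPKM in FoxP1SkmKO controls and 16.3 and 11.8 in KPC mice, and at 19.4, 19.7, 16.5, and 19.4 in the WT mice.

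The difference of the KPC effect between genotypes was tested directly. No gene passed edgeR on 48 libraries (0.00%), with 776 (4.96%) under 0.05 before adjustment, and DESeq2 on the 8 libraries called 5: Fhl1, Eif3j2, the mitochondrial transfer RNA mt-Te, and the gene models Gm28439 and Gm10222. Fhl1, a LIM protein of the sarcomere, was at 272 and 293 FPKM in WT controls, 162 and 175 in WT KPC mice, 181 and 162 in FoxP1SkmKO controls, and 167 and 153 in FoxP1SkmKO KPC mice. The WT controls stood above the other 6 mice, which were alike. For F2r the effect differed by -0.82 on the log2 scale (standard error 0.25, adjusted p = 0.97), and for the GTPases the larger WT effect was likewise not called, with a difference of 0.65 (standard error 1.30) for Tgtp1. Across all genes, the log2 fold changes of the genotypes, which share no mice, correlated weakly (Pearson 0.106, Spearman 0.128, as a description), and 54.1% had the same sign.

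Compared with the other hours, noon lay between times with many calls and times with none. The same edgeR test called 9 genes at CT18 (0.0576%), 0 at CT22 (0.00%), 982 at CT26 (6.28%), 0 at CT34 (0.00%), and 96 at CT38 (0.614%). The test of CT30 against the mean of the other 5 hours called no gene (0.00%), with 814 (5.21%) under 0.05 before adjustment, so nothing is shown to be particular to noon. Cd93 had log2 fold changes of -0.02 to -0.18 at the other hours, and its effect at CT30 differed from their mean by -0.42 (standard error 0.10, adjusted p = 0.75). Cdh5 had -0.01 to -0.14 elsewhere and differed by -0.34 (standard error 0.09, adjusted p = 0.78).

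The interferon-gamma GTPases had medians of 0.18, 0.28, 0.19, 0.62, and 0.58 at CT18, CT22, CT26, CT34, and CT38, and the class I genes 0.03, 0.12, 0.05, 0.34, and 0.36, all below the 0.87 and 0.47 of CT30. Collagens had -0.34, -0.10, -0.22, -0.46, and -0.53, so the lower level at CT30 was matched at CT38. Single genes were called at other hours and not at noon: Per1 rose at CT26 (log2 fold change 1.10, adjusted p = 0.0052), and Cebpd rose at CT38 (1.68, adjusted p = 1.7e-06). Mice at different hours are different animals.

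**Figure D5:**
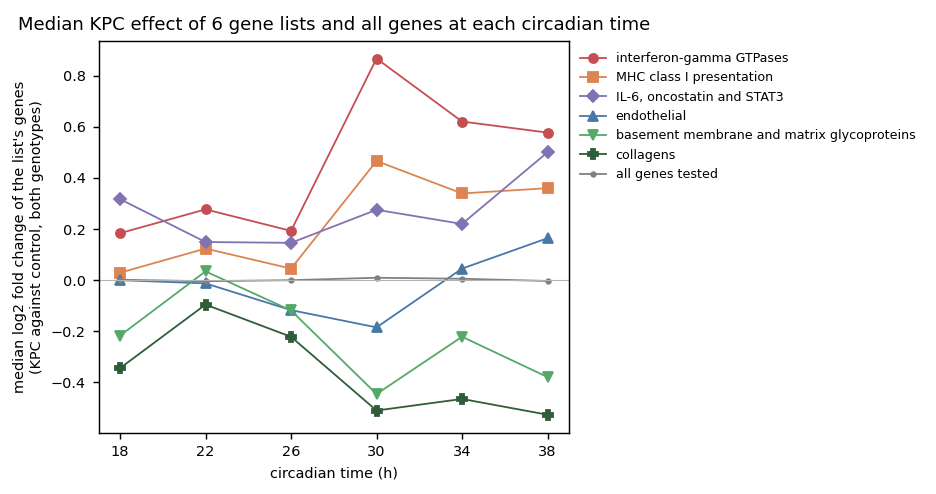
Median log2 fold change of KPC against control mice, both genotypes combined, over the kept genes of 6 lists and over all genes (y axis), at each of the 6 circadian times in hours (x axis). At CT30 the medians are 0.87 for interferon-gamma GTPases, 0.47 for class I presentation, 0.28 for IL-6 and STAT3, -0.18 for endothelial markers, -0.45 for basement membrane, and -0.51 for collagens.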

How the data were processed

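RNA of tibialis anterior from 8 mice at CT30 was analysed within the 48 poly-A libraries of the series. The authors deposited raw counts per gene, made on mm39 with STAR and HTSeq by the methods but with HISAT2 2.0.5 by the submitters' processing notes, which also name DESeq2 1.20.0. The authors also deposited FPKM, from counts, gene length, and library size, used here for levels only. Columns of the authors' own fold changes and p-values were not used.

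Counts were tested with edgeR 4.0.16 (quasi-likelihood, TMM, filterByExpr, 15637 of 56748 genes kept) in R 4.3.3, with a coefficient for each of the 24 groups of 2 mice, and genes were called at a Benjamini-Hochberg adjusted p under 0.05. The labels give no batch. Alternatives were DESeq2 1.42.0, edgeR on 8 libraries, median-ratio scaling, no filter, removal of the trend with gene length, the replicate number as a block, and each library left out. Scripts were tested on simulated counts. Total counts of 15130678 to 16810168 limit the precision of genes with few reads.

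The members were picked by their labels, without use of expression values, but earlier results of these data were known when members, gene lists, and markers were chosen. Named genes were up to 12 called genes in each direction with mean log2 CPM above 0 and the same sign in both genotypes, up to 4 called genes of a list or otherwise the 2 with the smallest p, and the clock genes and Foxp1, except that some genes are not reported here. All others were named after their values were seen. RefSeq promoters of GRCm38.p6 were matched by symbol for 11 of 17 GTPase-list genes, 20 of 23 class I genes, and 32 of 40 collagens.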

Additional observations from a re-analysis of the deposited data

Results flagged for a closer look

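In 15 of 268 groups of 4 mice (5.6%), 1 mouse lay far from the other 3 by Dixon's criterion, about the 1 in 20 groups that chance gives. Of these, 6 concern the second FoxP1SkmKO KPC mouse among KPC mice. It was highest for S100a8 at 4.956 FPKM (others 0.08765 to 0.2766), S100a9 at 9.716 (0.3496 to 0.9805), Sln at 34.1 (0.9708 to 1.154), Myod1 at 27.97 (11.76 to 14.48), and Hdac4 at 4.236 (3.148 to 3.324), and lowest for Igf1 at 0.2472 (0.301 to 0.305). The first WT KPC mouse was highest for Nlrc5 at 0.8749 FPKM (0.5443 to 0.5972) and lowest for Cycs at 59.67 (69.84 to 70.8).

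Among control mice, the second WT control was highest for Col1a1 at 36.11 FPKM (13.24 to 15.3) and S100a8 at 0.3847, where the other 3 were listed at 0, and lowest for Ubb at 196.2 (221.7 to 226). The first WT control was highest for Mylk2 at 449.7 FPKM (356.1 to 371.3). The second FoxP1SkmKO control was highest for Pecam1 at 15.78 FPKM (12.45 to 13.02) and Foxo4 at 65.26 (57.98 to 59.07), and the first was highest for Pcdh12 at 2.218 (2.167 to 2.173), within a very narrow range.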

How the results depend on the processing

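For both genotypes combined, the count of 1 called gene became 39 with DESeq2 on 48 libraries, 100 with DESeq2 and 8 with edgeR on the 8 libraries, and 391 with no filter on low counts, where the prior degrees of freedom were infinite, and leaving out a library gave 0 to 43. In WT mice the count of 1 became 0 with DESeq2 on 48 libraries, 39 and 26 with DESeq2 on 4 and 8, 7 with edgeR on 8, 0 with median-ratio scaling, and 165 with no filter, and leaving out a library gave 0 to 4. In FoxP1SkmKO mice the count of 0 became 32, 18, and 23 with DESeq2 on 48, 4, and 8 libraries, 1 with median-ratio scaling, and 317 with no filter, and leaving out a library gave 0 to 101, the latter without the first FoxP1SkmKO KPC mouse. The difference between genotypes had 5 calls with DESeq2 on 8 libraries, 78 with no filter, and 0 to 6 with a library left out, and the difference of CT30 from the other hours 98 with no filter and 0 to 4. The cause was not tested.

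The replicate number was added as a block, which gave 0 calls combined, in WT mice, and in FoxP1SkmKO mice. The numbers did not pair the mice: deviations of same-numbered mice correlated at -0.0701 to 0.0130.

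Of 134 genes in 2004 alternatives, 130 kept the sign of the combined log2 fold change throughout. Cry1, at 0.00, had -0.0019 and -0.0025 with DESeq2 on 48 and 8 libraries, -0.0018 with median-ratio scaling, -0.0042 with edgeR on 8, and -0.0023 with no filter. With a library left out it ranged from -0.12 to 0.099, Clock from -0.035 to 0.081, Npas2 from -0.61 to 0.51, and Ciart from -0.090 to 0.16. Genes with few reads, such as Ifng and Npas2, are limited by depth, and 2 mice a group limit all tests.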
